A study of Mus musculus with 12 samples.

Results

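The 41 germline genes described here were taken by name, with earlier results of these data known. Each was read at its promoter, defined as 500 bp on either side of the start of the Ensembl canonical transcript (GENCODE, mm39), and over its gene body. They are 41 of 21757 protein-coding genes. The methylation level of a promoter is the number of methylated reads divided by the total number of reads over its CpGs. The genes were listed in 5 groups by role: 14 under piRNA biogenesis and transposon control, 12 under meiotic chromosomes and recombination, 8 under germ cell specification and meiotic entry, 3 under the egg coat and 4 under sperm and testis. Ddx25, a testis RNA helicase, was listed with the first group. The working name of the group, germline genes silenced by promoter methylation, was checked against the levels and held for 30 of 41: 3 promoters were under 10% in every pool and 8 lay between. Because earlier results were known, this is a description and not an independent check. Silencing itself was not measured, because only DNA methylation was analysed here.

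WGBS, which reads the methylation of each CpG from bisulfite-converted DNA, was done on sorted β cells of MNYI mice at postnatal day 2 (P2) and day 60 (P60). All groups carry Myt1cCre, Ngn3nCre, Rosa26eYFP and InsApple. The split Cre, its parts driven by Myt1 and Ngn3, leaves eYFP in descendants of M+N+ progenitors, so that eYFP+ and eYFP- mark the β-cell subtypes, and Apple under the insulin promoter marks β cells. There are 2 libraries per subtype at P2 and 4 at P60, each from DNA of several combined FACS batches and several mice, so that a library is a pool of animals. The sample titles name the reporter eGFP and the cell-type label reads all islet cells. Of 8 β-cell genes, 5 had promoters under 10% in all 4 pools and 3 did not. The promoters of Pdx1, Nkx6-1, Mafa and Neurod1, which encode β-cell transcription factors, were between 0.454% and 1.46%. Pcsk1 was between 3.48% and 7.61%. The insulin gene promoter Ins1 was at 28.3%, 35.1%, 7.87% and 5.74% in P2 eYFP-, P2 eYFP+, P60 eYFP- and P60 eYFP+. Ins2 was at 12.6%, 20.6%, 4.86% and 5.47%, and Slc30a8 between 11.6% and 14.7%. Of protein-coding promoters outside the germline group, 54.8% were under 10% in all pools, so low levels do not identify the cell type.

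The read counts of all libraries of a subtype and stage were summed before deposit, with a mean of 24.2 and 24.4 reads per CpG in the P2 eYFP- and eYFP+ pools and of 43.7 and 43.5 at P60. Levels therefore have no replicate error; 95% Wilson intervals are given, which cover counting error only. Single libraries have the positions of hypomethylated regions (HMRs), stretches of low methylation that the authors called in each library. HMR numbers were higher in the P2 libraries (57122 to 60968) than in the P60 libraries (38064 to 49975). All P2 libraries came from 1 submission and the P60 libraries from the other two, so stage and submission cannot be told apart. On the X chromosome, 77.6% to 79.8% of CpG-rich starts lay in an HMR in the P60 libraries labelled female and 94.6% to 95.2% in those labelled male, while at P2 eYFP- the library labelled female had 94.9% and the one labelled male 87.3%. The sex labels of these 2 libraries go against this measure. No germline gene of the group lies on X or Y, and sex was used in no test.

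Germ cells protect their genome with piRNAs, short RNAs that PIWI proteins use to recognise transposons, and they divide by meiosis, in which cohesins and the synaptonemal complex hold homologous chromosomes together while Spo11 breaks and Dmc1 repairs DNA. Most of the genes for these processes are kept silent in somatic tissues. Many of them have promoters rich in CpGs, a kind of promoter that usually stays unmethylated in all tissues, and germline genes are the known exception, methylated in the early embryo by DNMT3B and silenced together with the PRC1.6 complex and the histone methyltransferases G9a and SETDB1.

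Promoters were separated by the number of listed CpGs. Those with fewer than 20 are called CpG-poor, those with 20 to 39 intermediate and those with 40 or more CpG-rich. Among the germline genes, 3 were CpG-poor, 10 intermediate and 28 CpG-rich. All 3 CpG-poor and all 10 intermediate promoters had at least 50% methylation in all 4 pools, against 67.4% and 23.5% of the other protein-coding promoters of these classes. Of the 28 CpG-rich promoters, 17 (60.7%) were at 50% or more, against 62 of 11505 other CpG-rich promoters (0.539%). Conversely, 3 of 28 (10.7%) stayed under 10% in all pools, against 90.6% of the others. The median level of the CpG-rich germline promoters was 73.0%, 76.3%, 74.8% and 74.9% in P2 eYFP-, P2 eYFP+, P60 eYFP- and P60 eYFP+, and that of the other CpG-rich promoters was 1.22%, 1.39%, 1.21% and 1.23%.

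**Figure D1:**
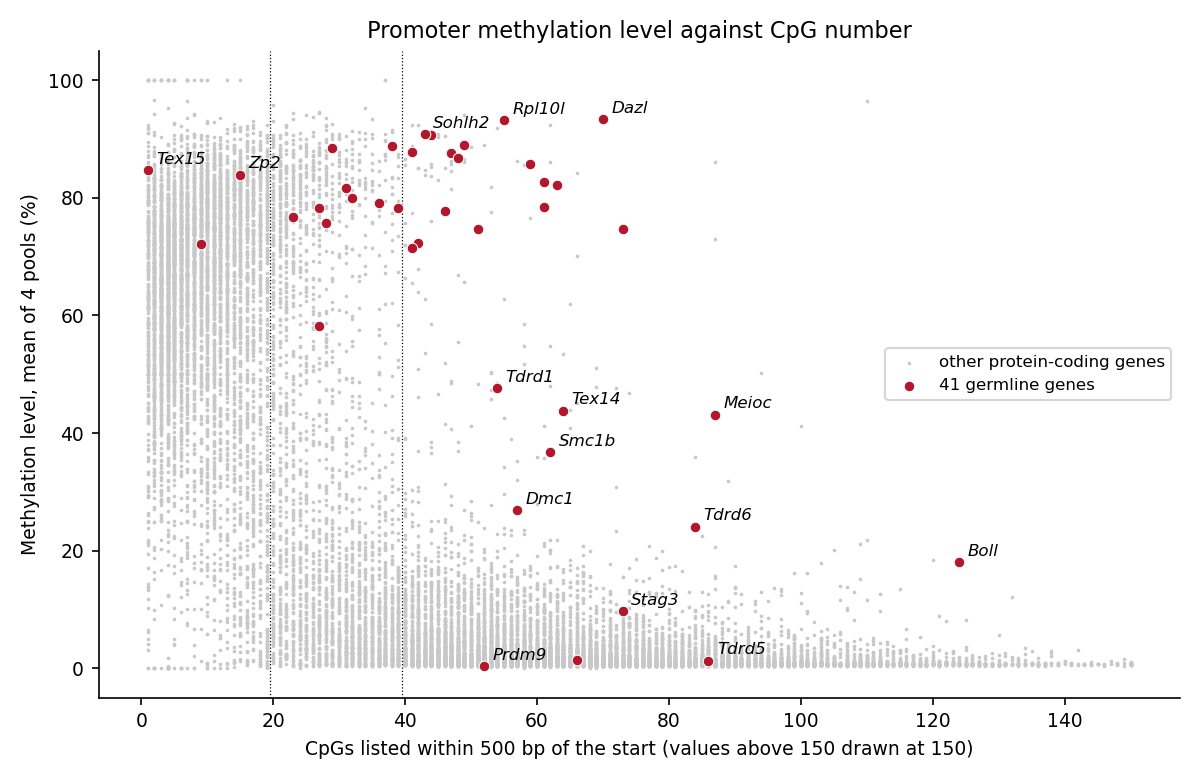
Promoter methylation level in percent (mean of the 4 pools, vertical axis) against the number of CpGs listed within 500 bp of the start (horizontal axis), with each grey point 1 other protein-coding gene and each red point 1 of the 41 germline genes; dotted lines mark the class limits. To the right of 40 CpGs most genes lie near 0, whereas 17 of the 28 CpG-rich germline genes lie at 50% or more, 8 between and 3 under 10%.

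Ranked by mean level among 11501 CpG-rich promoters with at least 50 reads in every pool, the germline genes held 2 of the 10 highest places, 13 of the 50 highest and 18 of the 100 highest. Dazl, an RNA-binding protein needed for germ cell development, ranked 3, with 93.2% in P2 eYFP- (interval 91.9 to 94.3), 92.1% in P2 eYFP+, 94.2% in P60 eYFP- and 93.9% in P60 eYFP+. Rpl10l, a testis-expressed copy of a ribosomal protein gene, ranked 4, with 95.8%, 93.2%, 91.5% and 92.4% in the same order of pools. Sohlh2, a germ cell transcription factor, had 90.6%, 91.9%, 91.2% and 89.6%. These promoters were nearly fully methylated in both subtypes and at both ages. All 30 promoters at 50% or more had no base of their window in an HMR in any of the 12 libraries. The same held for 5170 of 5320 other promoters at 50% or more, and for 54 of the 62 CpG-rich ones. HMRs and levels come from the same libraries, so this is no separate evidence.

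At the other end, Prdm9, the histone methyltransferase that places meiotic recombination hotspots, had 0.342%, 0.190%, 0.318% and 0.497%, and ranked 11489. Tdrd5, a Tudor protein of the piRNA pathway, had 0.965%, 1.50%, 1.46% and 1.44%. Ddx25, a testis RNA helicase, had 1.46%, 1.31%, 1.24% and 1.44%. The whole Prdm9 window lay in an HMR in all 12 libraries. Tdrd5 and Ddx25 lay near the median of the other CpG-rich promoters.

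To show the sequences behind this contrast, the 150 bases before the 5′ end of the 2 highest and 2 lowest CpG-rich genes are printed, chosen after their levels had been seen. They are given 5′ to 3′ on the strand of the gene (the minus strand for all 4, mm39), with each CpG in capitals, for chr17:50600665-50600814 (Dazl), chr12:66331182-66331331 (Rpl10l), chr17:15784617-15784766 (Prdm9) and chr1:156131311-156131460 (Tdrd5).
Dazl: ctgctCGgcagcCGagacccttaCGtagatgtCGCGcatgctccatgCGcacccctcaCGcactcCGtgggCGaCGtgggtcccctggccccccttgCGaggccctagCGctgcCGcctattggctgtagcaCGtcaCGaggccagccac
Rpl10l: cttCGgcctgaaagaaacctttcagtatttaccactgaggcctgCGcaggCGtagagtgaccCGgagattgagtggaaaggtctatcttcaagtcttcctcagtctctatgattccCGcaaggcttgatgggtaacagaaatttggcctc
Prdm9: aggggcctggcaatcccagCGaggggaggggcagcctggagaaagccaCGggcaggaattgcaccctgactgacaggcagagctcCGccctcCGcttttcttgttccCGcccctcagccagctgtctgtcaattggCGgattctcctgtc
Tdrd5: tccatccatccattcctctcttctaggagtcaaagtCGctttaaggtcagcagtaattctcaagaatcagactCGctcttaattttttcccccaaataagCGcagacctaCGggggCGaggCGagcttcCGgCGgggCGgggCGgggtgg
The 15 CpGs of the Dazl stretch were at 97.8%, 96.4%, 97.4% and 97.4% in the 4 pools, and the 10 of Tdrd5 at 0.498%, 1.56%, 1.31% and 2.03%. The 5 CpGs of Rpl10l were between 92.5% and 98.3%, and the 6 of Prdm9 between 0% and 1.02%. The short stretches of Rpl10l and Prdm9 thus hold nearly the same number of CpGs at opposite levels.

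**Figure D2:**
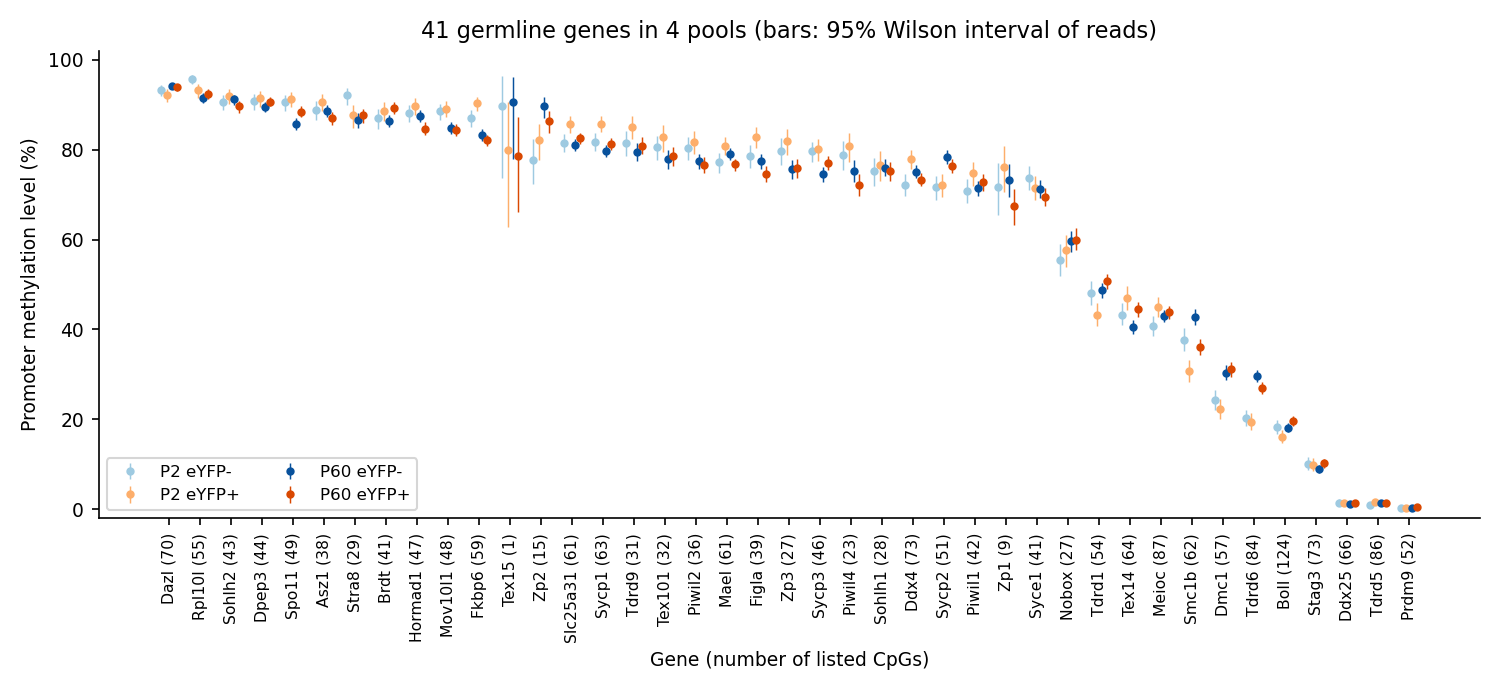
Promoter methylation level in percent (vertical axis) of each of the 41 germline genes in the 4 pools (colours), ordered by mean level, with the number of listed CpGs after each name; bars are 95% Wilson intervals from the reads. Levels run from above 90% at Dazl to under 1% at Prdm9, and the 4 pools of a gene lie close together compared with this range.

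By role, 10 of 14 genes listed under piRNA and transposon control were at 50% or more in all pools. Of the rest, 2 were under 10% (Tdrd5 and the testis helicase Ddx25) and 2 between (Tdrd1 and Tdrd6). The PIWI proteins Piwil1, Piwil2 and Piwil4 averaged 72.4%, 79.0% and 76.8%, the helicases Ddx4, Tdrd9 and Mov10l1 74.6%, 81.7% and 86.7%, and the piRNA factors Mael, Fkbp6 and Asz1 78.4%, 85.7% and 88.8%. Tex15, also of this group, has a single CpG within 500 bp of its canonical start, with 89.7% of 29 reads in P2 eYFP-, 30 reads and an interval of 62.7% to 90.5% in P2 eYFP+, 90.5% of 42 reads in P60 eYFP- and 78.6% of 56 reads in P60 eYFP+, and is the only gene that did not reach 50 reads in every pool. At the 5′ end of the Tex15 gene, 53806 bp away, 45 CpGs were at 44.5%, 40.5%, 45.2% and 42.2%. The start used also moved the level of 6 other genes by over 1.5 times. At the 5′ end of the gene Spo11 was at 34.2%, 44.1%, 62.6% and 59.4%, and Stra8 and Meioc averaged 56.7% and 69.6%. Boll, Stag3 and Tdrd5 averaged 3.43%, 5.85% and 2.71% there.

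Of the 12 meiotic chromosome genes, 7 were at 50% or more. The synaptonemal complex genes Sycp1, Sycp2, Sycp3 and Syce1 averaged 82.2%, 74.6%, 77.8% and 71.5%, the axis gene Hormad1 87.6%, the DNA-cutting Spo11 89.0% and the bromodomain gene Brdt 87.8%. The meiotic cohesin subunits Stag3 and Smc1b were lower, at 9.73% and 36.8%, as were Dmc1 (27.0%) and Meioc (43.1%), which sustains meiotic prophase. Prdm9 was the single gene of this group under 10% in all pools, and Stag3 ran from 8.94% to 10.2%. Among 8 genes of specification and meiotic entry, 6 were at 50% or more. Stra8, which starts meiosis, had 92.1%, 87.6%, 86.6% and 87.6%, and the oocyte transcription factors Figla and Nobox averaged 78.3% and 58.2%. Sohlh1 had 75.2%, 76.6%, 76.0% and 75.3%. Boll, a relative of Dazl, and the intercellular bridge gene Tex14 averaged 18.0% and 43.8%.

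The egg coat genes Zp1, Zp2 and Zp3 had few CpGs (9, 15 and 27) and averaged 72.1%, 83.9% and 78.3%. Zp1, the lowest of the CpG-poor class, had 71.6%, 76.2%, 73.3% and 67.4%. The sperm and testis genes Tex101, Slc25a31, Dpep3 and Rpl10l averaged 79.9%, 82.7%, 90.6% and 93.2%. All 7 genes of these groups were at 50% or more. Within the intermediate class the highest were Asz1 (88.9%, 90.6%, 88.7% and 87.1%), Stra8 and Tdrd9 (81.5%, 85.0%, 79.5% and 80.9%), and the lowest were Nobox (55.4%, 57.6% and 59.6% in the first 3 pools, with an interval of 57.6% to 62.5% in P60 eYFP+), Sohlh1 and Piwil4 (78.9%, 80.7%, 75.3% and 72.2%).

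Gene bodies, taken as the gene span without the promoter window, had a median of 75.0% over the 41 genes and 71.5% over the other protein-coding genes. Prdm9, Tdrd5 and Ddx25, with unmethylated promoters, had bodies at 72.4%, 75.0% and 75.4%. Dazl went the other way, with a promoter at 93.4% and a body at 35.0%, 34.9%, 29.4% and 29.9% in the 4 pools. It was the single germline gene with a body under 40% in all pools, which 1.61% of the 4769 genes with a promoter at 50% or more and at least 10 CpGs in the body had. Among the 73 of these with a CpG-rich promoter, the class of Dazl, the share was 5.48%. The change was abrupt. The 13 CpGs from 250 to 499 bp after the Dazl start were at 84.2%, 83.8%, 86.2% and 87.3%, and the 34 CpGs of the next 250 bp at 3.90%, 2.71%, 3.28% and 2.90%. In all 12 libraries 1 HMR began between 507 and 529 bp after the start and ended at 2136 bp. Beyond 2500 bp the 38 CpGs of the gene were at 70.7% to 71.5%. None of the other 29 methylated germline promoters had an HMR within 2000 bp of the start in all 12 libraries, and 5.17% of the 5320 other genes at 50% or more did. Of the 62 other CpG-rich genes at 50% or more, 14.5% did.

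The 8 promoters between these states are Tdrd1, Tex14, Meioc, Smc1b, Dmc1, Tdrd6, Boll and Stag3. In a pool of cells, full methylation of a share of the cells or alleles and partial methylation of each cannot be told apart. In several the level depended on the position along the promoter. Both pools of a stage are summed here. Tex14 was at 11.6% upstream and 74.3% downstream of its start at P60, with a like split at P2. Smc1b was at 18.0% upstream and 54.5% downstream at P2, Boll at 1.77% and 39.3% and Stag3 at 0.648% and 19.5%. In these genes the unmethylated stretch was on the upstream side. Tdrd6, a Tudor protein of the chromatoid body, was the reverse, at 49.5% upstream and 5.54% downstream. Meioc, with 40.7%, 45.0%, 43.0% and 43.8% in the 4 pools, and Tdrd1, with 48.1%, 43.2%, 48.7% and 50.7%, were at intermediate levels on both sides of the start. At P2 Meioc had 48.5% upstream and 39.7% downstream, and Tdrd1 35.5% and 49.0%. Of their single CpGs with at least 10 reads, 72 of 87 and 40 of 54 were between 20% and 80% at P2.

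**Figure D3:**
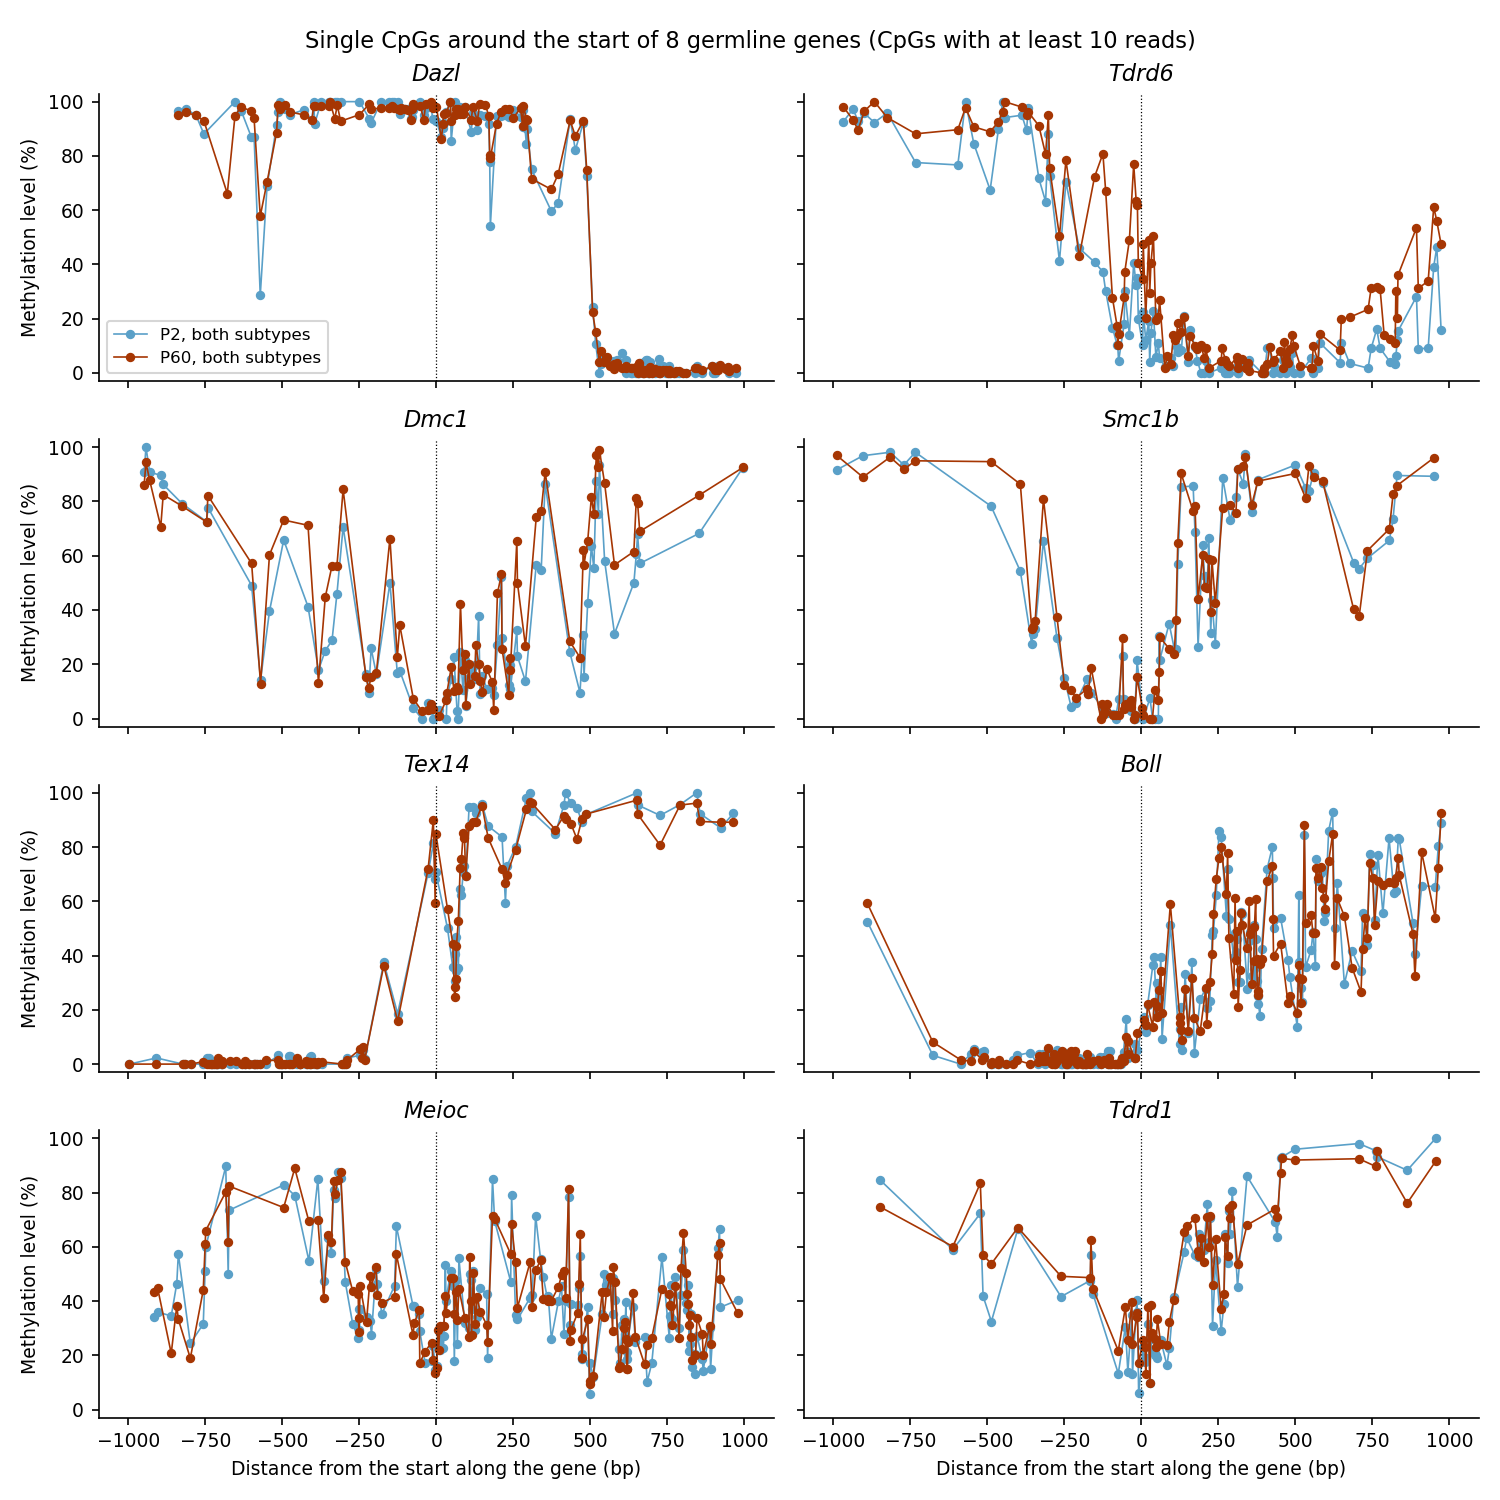
Methylation level of single CpGs in percent (vertical axis) against the distance from the start along the gene in bp (horizontal axis), for CpGs with at least 10 reads, at P2 (blue) and P60 (brown) with both subtypes summed. Dazl drops near 500 bp after the start, Tex14 and Boll are near 0 before the start, Tdrd6 and Dmc1 are low over a stretch that is narrower at P60, and Meioc and Tdrd1 are intermediate on both sides of the start.

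Smc1b, Tex14, Stag3 and Ddx25 share their region with a neighbour that starts within 1000 bp on the opposite strand. Smc1b starts 75 bp from Ribc2, whose own window was at 35.8%. Tex14 starts 444 bp from Rad51c, a gene of somatic DNA repair (8.04%), and Stag3 starts 333 bp from Gpc2 (1.83%) and 380 bp from Gm43720. None of the 30 promoters at 50% or more had such a neighbour. The genes with a neighbour are all CpG-rich, as are 17 of the 30. How often other promoters have such a neighbour was not counted, so no link with the level can be drawn.

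The first question of the study's design is whether the subtypes differ. At neither stage was a germline promoter called between eYFP+ and eYFP- (two-sided Fisher's exact test on summed reads over all 20408 promoters with at least 50 reads in every pool, 40 of them of the group, adjusted p under 0.05 and at least 10 percentage points). Over all promoters 0.201% were called at P2 and 0.0931% at P60. At an unadjusted p under 0.05 there were 13 germline promoters at P2 (32.5% of 40) and 11 at P60 (27.5%), against 11.3% and 12.5% of all promoters. These shares were not matched for level: 54.8% of other protein-coding promoters and 7.32% of germline promoters were under 10% in all pools. The higher shares therefore cannot be read as a subtype difference of these genes. With reads divided by the number of CpGs, 0 of 20406 promoters were called at either stage. These tests compare pools of reads, not mice. The largest difference was at Smc1b, with 30.7% in P2 eYFP+ and 37.7% in P2 eYFP-, and 36.1% in P60 eYFP+ and 42.7% in P60 eYFP-. Smc1b was thus lower in eYFP+ by 6.95 points at P2 (Fisher's exact test, adjusted p = 0.0237) and by 6.63 at P60 (adjusted p = 0.000236), and it was the single germline promoter with an adjusted p under 0.05 of any size at either stage, where 1.25% of all promoters at P2 and 1.63% at P60 had one. The share of the Smc1b window in an HMR did not follow: it averaged 33.3% in the 4 P60 eYFP+ libraries and 32.8% in the 4 P60 eYFP- libraries (two-sided exact permutation test, p = 1.00). At P2 the median difference over the 40 promoters was 1.38 points (0.178 over all tested), and at P60 it was 0.188 (-0.0111 over all tested).

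Between P2 and P60, a single germline promoter was called in eYFP- cells and none in eYFP+ cells. Over all promoters, 5.76% were called in eYFP- (3.75% with a higher level at P60) and 7.11% in eYFP+. The called promoter was that of Zp2, which encodes a sperm-binding protein of the egg coat (chr7, window 119744013 to 119745013), with 77.7% (interval 72.4 to 82.3, 265 reads) in P2 eYFP- and 89.7% (87.1 to 91.7, 686 reads) in P60 eYFP-, 11.9 points higher (Fisher's exact test, adjusted p = 9.15e-05). In eYFP+ cells Zp2 had 82.1% at P2 and 86.3% at P60, a difference of 4.13 points (Fisher's exact test, adjusted p = 0.217). The Zp2 window has 15 CpGs, and its call was lost with 1000 bp on either side, where the difference was 8.88 points. Without a limit on size, 11 germline promoters in eYFP- and 19 in eYFP+ had an adjusted p under 0.05, against 17.5% and 22.3% of all promoters. Of these, 5 were higher and 6 lower at P60 in eYFP-, and 6 were higher and 13 lower in eYFP+. The lower ones in eYFP+ included Piwil4 (-8.44 points), Fkbp6 (-8.27) and Figla (-8.26), all of which stayed above 70% at P60. The median stage difference over the 40 germline promoters was -0.327 points in eYFP- and -2.08 in eYFP+, against -0.0548 and -0.234 over all tested. These medians were not matched for level, and 54.8% of other protein-coding promoters were under 10% in all pools. Over the tested CpG-poor promoters, a mostly methylated class, the medians were -1.86 and -3.23, and over the intermediate ones 0.331 and 0.176. The lower medians of the germline promoters therefore cannot be read as a change particular to these genes.

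Of the 8 partly methylated promoters, Tdrd6 and Dmc1 were higher at P60 in both subtypes by 6 points or more, and Stag3 differed by -1.08 and 0.388 points. Smc1b was also higher, by 4.99 points in eYFP- (Fisher's exact test, adjusted p = 0.0216) and 5.31 in eYFP+ (adjusted p = 0.00625). Tdrd1 was higher by 0.611 and 7.43 points (Fisher's exact test, adjusted p = 0.892 and 6.22e-05). Boll differed by -0.131 and 3.51 points, Meioc by 2.28 and -1.15 and Tex14 by -2.80 and -2.57. Tdrd6 had 20.3% in P2 eYFP- and 29.7% in P60 eYFP-, and 19.4% in P2 eYFP+ and 27.0% in P60 eYFP+, higher at P60 by 9.44 points (Fisher's exact test, adjusted p = 6.32e-14) and 7.51 (adjusted p = 2.02e-08). Dmc1, the meiotic recombinase, had 24.2% and 30.3% in eYFP- and 22.2% and 31.1% in eYFP+, higher by 6.11 (Fisher's exact test, adjusted p = 0.000609) and 8.87 points (adjusted p = 5.43e-08). Neither reached 10 points over the whole window.

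The HMRs of the single libraries gave these genes a comparison across libraries. For each library the share of the promoter window inside an HMR was taken, and 4 P2 libraries were compared with 8 P60 libraries by a two-sided exact permutation test, adjusted over 8769 promoters, where the smallest p is 0.00202. The test treats all these libraries as independent. The labels do not say whether eYFP+ and eYFP- libraries were sorted from the same mice, and if they were, these p-values are too small. Of 10 germline promoters whose share varied, 2 were called, both lower at P60. Over all promoters tested 10.2% were called, 9.97% lower at P60, and the median change was -2.90 points over all and -3.78 over the 10.

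For Tdrd6 the share was 58.2% and 61.6% in the P2 eYFP- libraries and 59.4% and 61.6% in the P2 eYFP+ libraries. In the P60 libraries it was between 42.5% and 49.7%, with a median of 44.6%. The groups do not overlap, and the mean was 14.8 points lower at P60 (adjusted p = 0.0225, exact permutation test). An HMR covered the Tdrd6 start in 4 of 4 P2 libraries and in 0 of 8 P60 libraries, and Tdrd6 was the single germline gene for which the stages separated in this way. Over all genes whose cover of the start varied between libraries, 92 of 1361 (6.76%) were called on this measure (exact permutation test, adjusted p under 0.05).

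For Dmc1 the share was 49.1% and 50.9% in P2 eYFP-, 51.8% and 67.2% in P2 eYFP+, and between 26.2% and 47.0% at P60, with a median of 31.6%. Again no P60 library reached a P2 library, and the mean was 20.6 points lower at P60 (adjusted p = 0.0225, exact permutation test). The start of Dmc1 stayed in an HMR in all 12 libraries, so that here the HMR became narrower around it. The differences kept their sign with P60 replicates 1 and 2 only (-14.6 points for Tdrd6 and -24.2 for Dmc1) and with replicates 3 and 4 only (-15.0 and -17.0), which come from different submissions, although with 4 against 4 libraries the adjusted p of both genes was 0.179 and 0.208 (exact permutation test). Leaving out any P2 library left differences of -14.3 to -15.5 points for Tdrd6 and of -16.4 to -22.5 for Dmc1. The smallest possible p is then 0.00606, the adjusted p of both genes was between 0.0543 and 0.0605 (exact permutation test), and 0 promoters of any gene were called. The P60 libraries also had fewer HMRs in all, and the part of this in the result was not tested.

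The 150 bases before the start of both genes are given in the same way, for chr17:43941191-43941340 (Tdrd6, minus strand) and chr15:79489352-79489501 (Dmc1, minus strand) to show the CpGs next to the start.
Tdrd6: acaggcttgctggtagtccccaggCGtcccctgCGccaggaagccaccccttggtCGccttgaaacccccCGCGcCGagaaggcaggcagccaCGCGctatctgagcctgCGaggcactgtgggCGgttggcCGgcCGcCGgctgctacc
Dmc1: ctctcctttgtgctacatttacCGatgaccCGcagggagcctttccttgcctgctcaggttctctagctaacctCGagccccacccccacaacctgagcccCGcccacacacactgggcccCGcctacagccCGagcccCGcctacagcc
The 13 CpGs of the Tdrd6 stretch were at 23.5% and 22.1% in P2 eYFP- and eYFP+ and at 46.7% and 40.6% at P60. Both subtypes were higher at P60. The 7 CpGs of the Dmc1 stretch were at 13.7% and 3.61% at P2 and at 11.9% and 13.1% at P60, higher at P60 in eYFP+ and not in eYFP-. Farther from the start Dmc1 was higher at P60 in both subtypes, where the 11 CpGs from 250 to 499 bp after it were at 33.3% and 35.4% at P2 and at 57.2% and 53.5% at P60.

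None of the other 8 promoters tested passed, and the Prdm9 window did not vary. Tdrd1 had an HMR over its start in 7 of 12 libraries, 3 of 4 at P2 and 4 of 8 at P60, and its share of the window ran from 0% to 26.3% at P2 and from 0% to 15.9% at P60 (exact permutation test, adjusted p = 0.441). Meioc had an HMR over its start in 8 of 12 libraries, and shares from 0% to 11.2% at P2 and from 0% to 8.39% at P60 (adjusted p = 0.770, exact permutation test). In both genes the shares of the stages overlapped. Between the subtypes at P60, 0 of 10 germline promoters had an unadjusted p under 0.05 (exact permutation test on 4 against 4 libraries, where the smallest p is 0.0286), against 0.502% of 7762 promoters. The lowest p was at Tdrd6, with 43.8% of the window on average in eYFP- and 47.1% in eYFP+ (p = 0.0571, exact permutation test). At P2 the subtypes have 2 libraries each, for which the exact permutation test cannot give a p below 0.333, and no test was run.

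**Figure D4:**
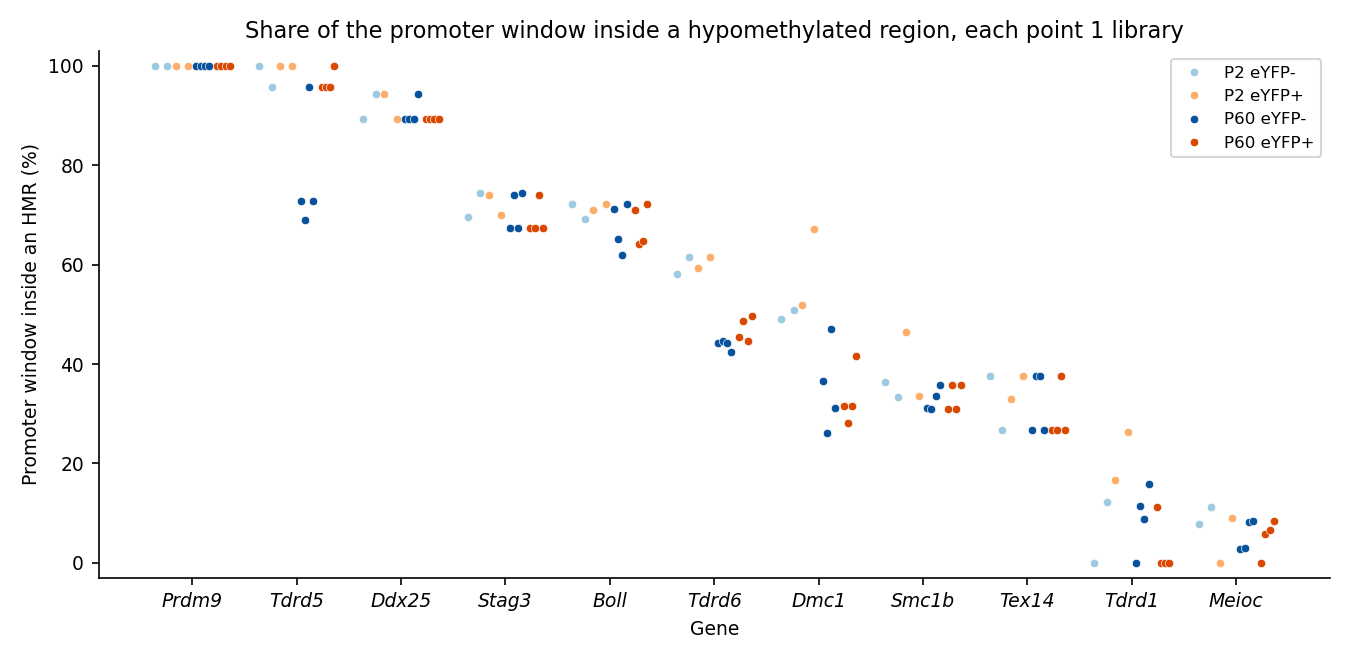
Share of the promoter window inside an HMR in percent (vertical axis) for the 11 germline genes with an HMR in any library, with each point 1 library coloured by group. The P60 points of Tdrd6 (42.5% to 49.7%) and Dmc1 (26.2% to 47.0%) lie below all P2 points, and those of the other genes overlap with them or are equal.

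Promoters were searched for 2 motifs, on both strands: CACGTG, the E-box that MAX and MGA of the PRC1.6 complex bind, and TCCCGC, the E2F6 motif. They can share at most 1 base and were counted separately. CACGTG was present in 16 of 28 CpG-rich germline promoters (57.1%), in 12 of the 17 at 50% or more (70.6%) and in 4 of the 11 below (36.4%), against 22.2% of other CpG-rich promoters and 25.8% of the 62 others at 50% or more. In the intermediate class it was present in 6 of 10, against 17.9% of the others. TCCCGC was present in 75.0% of CpG-rich germline promoters and in 75.5% of the others. The shares are a description of sequence, and no binding was measured.

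CACGTG holds a CpG of its own, and in many methylated germline promoters this CpG was lower than the rest. This measure was chosen after the data had been seen and is given without a test. At Sohlh1, with 3 such sites within 137 bp before the start, the CpGs inside CACGTG were at 31.4%, 39.4%, 29.1% and 27.7% in the 4 pools and the other CpGs of the window at 81.1%, 81.2%, 81.3% and 81.1%. At Slc25a31 they were at 55.2%, 36.4%, 53.2% and 38.7%, against 81.6% to 86.5%. At Sycp3, with 2 sites, they were at 43.5%, 42.9%, 50.5% and 46.7%, against 75.4% to 81.7%. At Piwil1, also with 2 sites, they were at 36.1%, 51.3%, 30.3% and 41.3%, against 72.8% to 75.6%. In these 4 promoters the E-box CpGs were lower than their surroundings in every pool.

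The sites are shown with 10 bases on either side and CACGTG in capitals, because they are the CpGs with these lower levels (mm39). Those of Sohlh1 are at chr2:25737476-25737501, chr2:25737456-25737481 and chr2:25737437-25737462 (minus strand), that of Slc25a31 at chr3:40663198-40663223, those of Sycp3 at chr10:88295375-88295400 and chr10:88295396-88295421, those of Piwil1 at chr5:128813121-128813146 and chr5:128813146-128813171 and the nearer one of Tdrd1 at chr19:56814620-56814645 (plus strand).
Sohlh1 at -137 bp: tgcaagctatCACGTGggctgtgatc
Sohlh1 at -117 bp: gtgatcaggtCACGTGgtctgaaggt
Sohlh1 at -98 bp: tgaaggtctgCACGTGaagcagggag
Slc25a31 at -75 bp: caactggaaaCACGTGttatggtcac
Sycp3 at -44 bp: cgttggctccCACGTGagaacgggca
Sycp3 at -23 bp: gggcatggagCACGTGctaggaggcg
Piwil1 at -105 bp: aaccgccaccCACGTGgcagccaatc
Piwil1 at -80 bp: cagggcccagCACGTGtccacctcgc
Tdrd1 at -9 bp: gggctgcgcgCACGTGggagtaaact
The CpG 9 bp before the start of Tdrd1 was at 3.85%, 8.70%, 11.4% and 24.5% (26, 23, 70 and 53 reads), in a window at 43.2% to 50.7%. A single CpG has few reads, so the level of 1 site in 1 pool is imprecise.

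Over the 17 germline promoters at 50% or more in which the CpGs inside CACGTG and the others each had at least 10 reads in every pool, the CACGTG CpGs were lower in all 4 pools in 12 (70.6%). The median difference over all 17 was -17.8 points. Among 519 other protein-coding promoters at 50% or more the same held for 53.4%, and the median over all 519 was -10.6 points. The lower level was therefore also found among methylated promoters of other genes. Of the 136 sequence contexts of a CpG with 2 bases on either side, CACGTG ranked 6 from the lowest in promoters at 50% or more, 62.0% over the 4 pools, behind contexts that are no E-box such as AACGTT (54.3%). The CpGs inside TCCCGC were lower in all pools in 2 of 15 germline promoters (13.3%) and in 15.6% of 551 others. Zp3 was the single gene of the 17 with a higher mean level inside CACGTG, by 5.35 points.

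**Figure D5:**
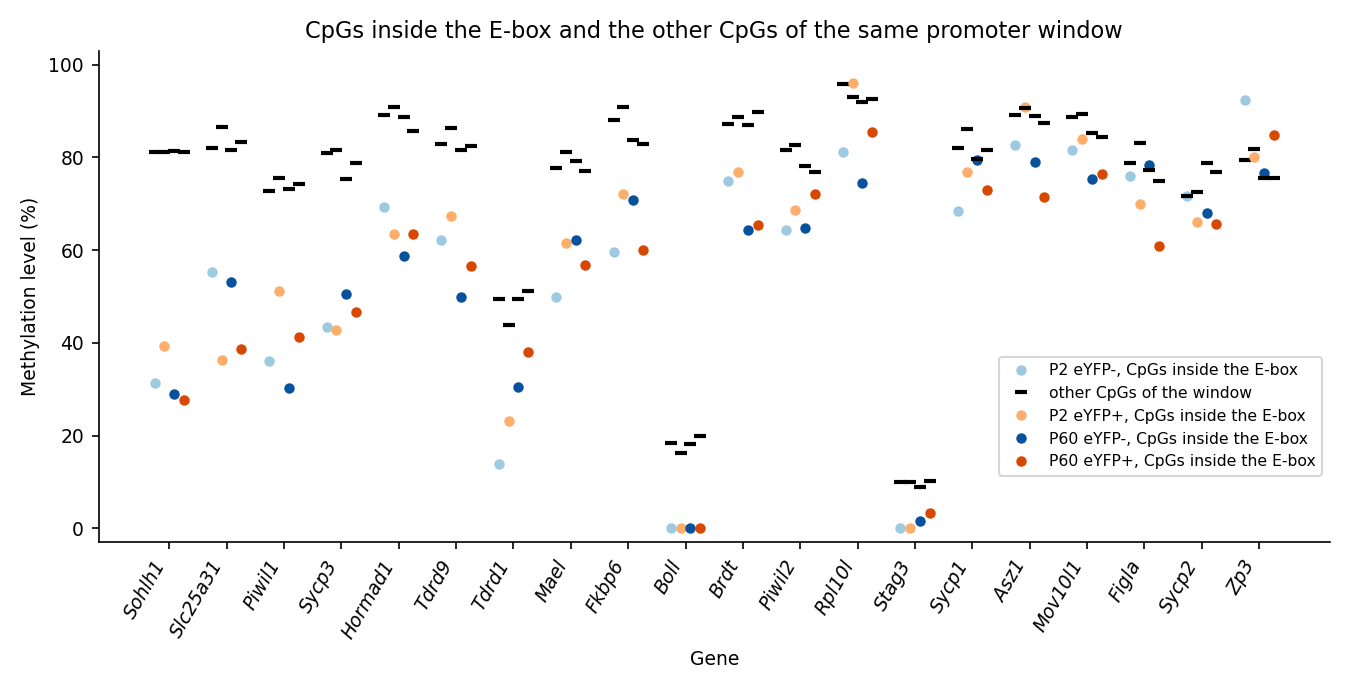
Methylation level in percent (vertical axis) of the CpGs inside the E-box CACGTG (coloured points, 1 per pool) and of the other CpGs of the same promoter window (black dashes) for the 20 germline genes with enough reads, ordered by the mean difference. The points of Sohlh1, Slc25a31, Piwil1 and Sycp3 lie farthest below their dashes, and those of Zp3 lie above on average.

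Other germline genes, listed by role, were read in the same way. Of 11 further piRNA and early germ cell genes that are not among the 41, 7 were at 50% or more, with Tdrd12 (89.5% to 90.4% in the 4 pools) and Tex19.1 (89.8%) highest and Tdrd7 (1.69%) and Tdrkh (5.63%) lowest. Of 21 further meiosis genes 10 were at 50% or more, with Majin (85.3%) and Tex12 (81.8%) highest and Hsf2bp (0.567%) and Msh5 (1.55%) lowest, and 1 was called, lower at P60 in eYFP+ (Rec8). Of 10 oocyte genes 5 were at 50% or more. Among the CpG-rich promoters of these lists, 0 of 4 piRNA, 5 of 14 meiosis and 0 of 2 oocyte promoters were at 50% or more. This was a lower share than the 17 of 28 CpG-rich promoters of the 41 genes. Zar1 was called higher at P60 in both subtypes and Mos in eYFP+, so that 1 of 10 oocyte genes was called in eYFP- and 2 of 10 in eYFP+, where 5.76% and 7.11% of all promoters were called. All 13 genes of the silencing complexes, among them Max, Mga, E2f6, Pcgf6, Setdb1 and Ehmt2, had CpG-rich promoters under 10% in all pools, and none was called in any comparison. Both are common in this class. Of the CpG-rich promoters outside the 41, 90.6% were under 10% in all pools. Of 11501 CpG-rich promoters tested, 46 were called higher and 5 lower at P60 in eYFP-, and 45 and 8 in eYFP+. Between subtypes, 5 were called higher and 2 lower in eYFP+ at P2, and 0 and 1 at P60.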

How the data were processed

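WGBS was done by tagmentation on sorted β cells of MNYI mice, 12 libraries in all, each of several combined sorts of several mice. Per the submitters' processing notes, Trim Galore 0.6.6, cutadapt 1.16, FastQC and SAMtools 1.5 were used, and the authors mapped reads with abismal and called methylation with MethPipe on mm39 (their versions are not given in the sources used here). Methylated and unmethylated read counts per CpG were deposited by the authors as 1 pool per subtype and stage, without normalization. HMR positions were deposited by the authors for each library. Columns and lists that hold the authors' own comparison of the subtypes (a score per CpG and differentially methylated regions) were not used.

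All 21730423 of 21730423 CpG positions read CG in GRCm39. Starts came from GENCODE vM39 (Ensembl canonical transcript), and the level of a promoter is the methylated reads over all reads within 500 bp of the start. Pools were compared by a two-sided Fisher's exact test over 20408 protein-coding promoters with at least 50 reads in every pool, with Benjamini-Hochberg adjustment (called: adjusted p under 0.05 and at least 10 points). CpGs on 1 read are not independent, and the test compares pools, not mice. HMR shares per library were compared by exact permutation tests. Wilson intervals (95%) cover counting error only, since reads carry no molecular identifiers. The p-values of tests on summed reads measure counting error only and hold no spread between samples. By their labels, female and male libraries of a group come from separate mice. The labels do not say so for libraries of the same sex, or for eYFP+ against eYFP- libraries. The p-values of the HMR tests therefore measure the spread between these libraries, which may in part be technical. Replicate numbers were not used as pairs.

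Every gene of the group is named, with values by pool for the 3 highest and 3 lowest of each CpG class, those called, and those with an HMR over the start in some libraries only. Tdrd1, Tex14 and other partly methylated genes, the printed sequences and the E-box measure were chosen after values were seen. The 41 genes and the lists were chosen with earlier results of these data known. Scripts were tested on simulated data. Python 3.11.15, numpy 2.4.6, pandas 2.3.3, scipy 1.17.1 and matplotlib 3.10.9 were used.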

Additional observations from a re-analysis of the deposited data

Results flagged for a closer look

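In 6 of 19 groups of 4 P60 libraries in which the HMR share of a germline promoter varied, 1 library stood apart from the other 3 by Dixon's criterion, which chance meets in about 1 in 20 groups. HMR edges fall on CpGs, so libraries often have equal shares and a single step then stands apart. In P60 eYFP+ these were Tdrd1 in replicate 1 (11.3% of the window, the others at 0%), Tdrd5 in replicate 4 (100%, the others at 95.8%), Stag3 in replicate 3 (73.9%, the others at 67.4%) and Tex14 in replicate 3 (37.5%, the others at 26.8%). In P60 eYFP- they were Tdrd5 in replicate 3 (95.8%, the others between 68.9% and 72.7%) and Ddx25 in replicate 4 (94.4%, the others at 89.2%).

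The stage difference of Ddx4, a helicase of the germ line, differed between the subtypes. Its promoter was at 72.2% in P2 eYFP- and 75.1% in P60 eYFP-, 2.91 points higher, and at 77.9% in P2 eYFP+ and 73.3% in P60 eYFP+, so that it fell by 4.56 points. The difference between these was -7.46 points, by a normal test of the difference of pooled proportions over 1331 to 3692 reads per pool. The Benjamini-Hochberg adjusted p over 20408 promoters was 0.0156, and the unadjusted p was 0.000144. It was the single one of 40 germline promoters with an adjusted p under 0.05, against 1.59% of all promoters, and it compares pools, not mice.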

How the results depend on the processing

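Stage differences could change direction at the 5′ end of the gene. Of the promoters called there, Spo11 was at 28.4 points in eYFP- and 15.3 in eYFP+ (-4.86 and -2.86 at the canonical start), and Stra8 at 11.5 in eYFP- (-5.50). Without a size limit the calls rose to 1 between subtypes at P2 and 1 at P60 (Smc1b), and to 11 in eYFP- and 19 in eYFP+ between stages, and with at least 5 points to 1, 1, 6 and 10. With 250 bp on either side 3 (Sycp2, Tdrd6 and Zp2) and 2 (Tdrd1 and Tdrd6) germline promoters were called between stages, at the 5′ end of the gene 3 (Spo11, Stra8 and Zp2) and 1 (Spo11), and with reads divided by the number of CpGs 0 in eYFP-, where Zp2 still differed by 11.4 points and 0 of 20406 promoters of any gene were called. By CpG class, 250 bp gave 5 CpG-poor, 20 intermediate and 4 CpG-rich promoters at 50% or more and 1 intermediate under 10%, since fewer CpGs are counted. At 1000 bp 3 intermediate promoters were at 50% or more, and with class limits of 15 and 30 CpGs 6. At the 5′ end of the gene 6 CpG-poor promoters were at 50% or more, and 5, all CpG-rich, under 10%. HMR calls between stages fell to 1 (Tdrd6) when only cover of the start was counted, to 0 with P60 replicates 1 and 2 only and to 0 with replicates 3 and 4 only. By cover of the start, 6.76% of 1361 promoters of any gene were called. Leaving out 1 library gave 0 to 2 calls, 0 without any P2 library and 2 without any P60 library. In the runs without a P2 library or with 2 P60 replicates, 0 promoters of any gene were called, since the smallest possible p rose to 0.00606 and 0.0286. Between subtypes at P60 it gave 0 to 1 (Tdrd6 without eYFP+ replicate 3, Tdrd5 without eYFP- replicate 3). The cause of these changes was otherwise not tested. Same-numbered P60 libraries correlated at 0.143, 0.125, 0.117 and -0.00129, and differently numbered ones at -0.118 to 0.0997. The main tests did not treat the numbers as pairs, and whether same-numbered libraries share mice was not tested. With the replicate number as a block, 0 germline promoters passed (exact sign-flip test, smallest possible p = 0.125). The alternatives for the E-box, added after seeing the data, gave 13 of 14 promoters lower with 250 bp (92.9%, against 58.0% of other genes), and 13 of 17 with P2 pools and 15 of 17 with P60 pools, against 12 of 17.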
